A study of Drosophila melanogaster with 4 samples.

Results

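The 5 rows FBgn0004141_HeT-A, FBgn0069343_TAHRE, FBgn0004904_TART-A, FBgn0004904_TART-B and FBgn0004904_TART-C of the expression tables hold the RNA level of the telomeric retrotransposons of Drosophila melanogaster in whole ovaries. They were taken by name from 29637 targets, of which 126 are transposon families, and all 5 passed the filter on low values (a mean of at least 0.995 normalized effective counts). The TART rows carry a single gene identifier and were quantified apart. RNA came from 2 piwi-embKD and 2 white-embKD ovary libraries. Both groups carried a vasa-GAL80[ts] transgene, whose product is a temperature-sensitive inhibitor of GAL4 under control of a germline gene, and the driver da-GAL4, which uses the broadly active daughterless gene. Piwi-embKD flies carried in addition the hairpin shpiwi, and white-embKD flies carried shwhite, directed at an eye-colour gene. Stocks were kept at 18 °C and embryos of both groups were moved to 28 °C to induce RNA interference. The age of the adults is not given in the sources used here, and because shpiwi and shwhite are separate lines, line background and knockdown cannot be told apart here.

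Flies lack telomerase. Their chromosome ends are instead kept up by HeT-A, TART and TAHRE, non-LTR retrotransposons of the jockey clade that transpose onto the ends and form head-to-tail arrays there. HeT-A encodes a Gag protein and no reverse transcriptase, TART encodes both, and TAHRE resembles HeT-A but carries a reverse transcriptase gene. In the female germline these elements are known targets of piRNAs, small RNAs that guide Argonaute proteins such as the nuclear protein Piwi. The series asked whether silencing of transposons in adult ovaries depends on Piwi being there during embryogenesis.

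Levels are normalized effective counts, the authors' estimate of fragments per target after fragments that fit several targets had been shared out by a model. They summed to between 970340 and 1017515 per library. The smallest value above 0 in each library was taken as the last decimal that eXpress writes. That put the depth at 16194219 and 16445363 effective counts in the piwi libraries and 20025084 and 19271510 in the white libraries. The piwi transcript itself stood at 238 and 121 in the piwi libraries, against 410.0 and 401 in the white libraries, and the difference did not pass the test (log2 −1.25 ± 0.29 SE, adjusted p = 0.0572 in limma). Its log2 change was −1.73 in the absence of piwi-embKD replicate 1 and −0.77 in the absence of replicate 2. The white gene (w) stood at 3.34 and 2.87 in the piwi libraries and at 1.35 and 1.19 in the white libraries (limma adjusted p = 0.103). Of 13 germline markers 12 passed the filter, bgcn being the exception, and limma called 0 of the 12 (6 at an unadjusted p under 0.05). Over all genes tested, 1887 of 7779 had an unadjusted p under 0.05. The summed level of the 13 was 11736 and 11136 in the piwi libraries and 12840 and 12222 in the white libraries.

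All telomeric elements were far higher in piwi-embKD ovaries. The groups were compared with limma across 8172 features, and a feature was called where its p, adjusted over all of them by the Benjamini-Hochberg method, was under 0.05. HeT-A, the Gag-only element, stood at 2159 and 2645 in piwi-embKD replicates 1 and 2, against 90.8 and 79.5 in white-embKD replicates 1 and 2. The lowest piwi library lay far above the highest white library. The ratio of means was 28.2 and the log2 change on the log2(value + 0.995) scale was 4.80 ± 0.13 (SE; limma, adjusted p = 2.81e-05).

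TAHRE, the HeT-A-like element with a reverse transcriptase gene, stood at 1328 and 1248 in the piwi libraries, against 25.7 and 17.9 in the white libraries. The ratio of means was 59.0, and the log2 change was 5.84 ± 0.17 (SE; adjusted p = 2.85e-05 in limma). The groups did not overlap, and the white libraries differed from each other by more, in proportion, than the piwi libraries did.

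The TART subfamilies, which carry both gag and reverse transcriptase genes, differed in how much they rose. TART-A stood at 323 and 289 in the piwi libraries and at 5.01 and 4.64 in the white libraries, 63.4 times as high on average (5.72 ± 0.11 SE on the log2 scale, limma adjusted p = 6.93e-06). TART-B stood at 233 and 291 in the piwi libraries and at 2.46 and 1.89 in the white libraries, 121 times as high on average (6.37 ± 0.16 SE, adjusted p = 2.17e-05). In the white libraries TART-B was measured from 49.7 and 37.5 effective counts, above the 3 counts that a target at 0 could have held. TART-C stood at 57.6 and 83.1 in the piwi libraries and at 8.65 and 6.35 in the white libraries, 9.38 times as high on average (3.06 ± 0.22 SE, adjusted p = 0.00115). For each subfamily both piwi libraries lay above both white libraries. The call of TART-C was lost with no filter on low values, where the change was the same and the limma adjusted p was 0.127.

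**Figure D1:**
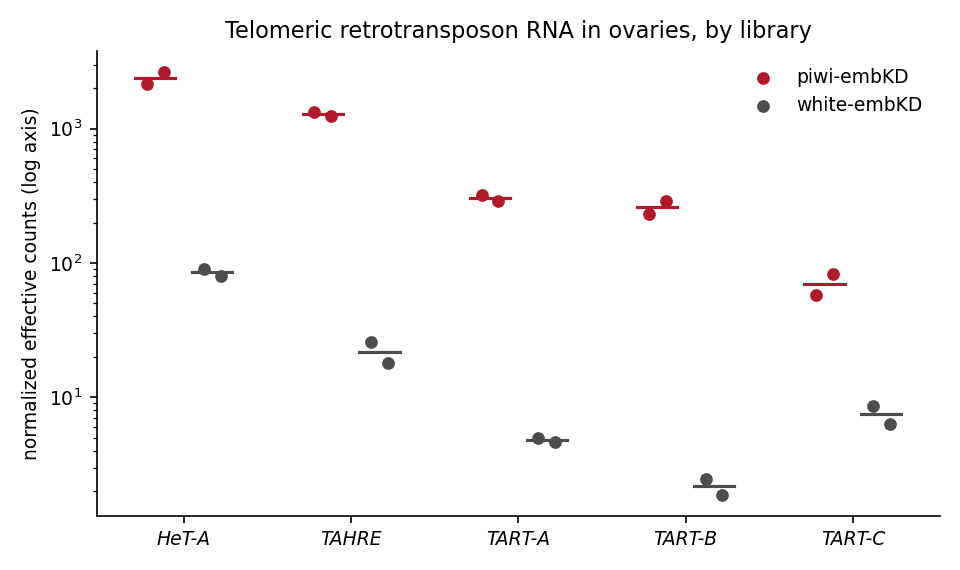
Normalized effective counts (log axis) of the 5 telomeric elements. Each point is a library, piwi-embKD in red on the left and white-embKD in grey on the right of each pair, and the bar is the mean of the 2 libraries. In every element both piwi libraries lie above both white libraries, with the narrowest gap in TART-C.

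The rise of the members stands against a wide background. Of 8172 features tested, 5.04% were called higher and 1.65% lower in piwi-embKD ovaries, and of 107 transposon families tested, 57% were called higher and 0% lower. An unadjusted limma p under 0.05 was reached by 2043 of the 8172 features and by 79 of the 107 families. All 5 members were called higher. In 5 of 5 the groups did not overlap, which also held, in the higher direction, for 25.9% of all features and 90.7% of transposon families. The median log2 change was 5.72 over the members, 0.90 over the other 102 transposon families and −0.04 over all features. Ordered by log2 change among the 107 families, TART-B came 2nd, TAHRE 4th, TART-A 5th, HeT-A 9th and TART-C 19th. Among all 8172 features they came 2nd, 4th, 6th, 10th and 32nd. These orders rest on the log2(value + 0.995) scale, which understates the change of features at low levels.

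Summed over the members, telomeric signal was 4101 and 4556 in the piwi libraries and 133 and 110.4 in the white libraries, 35.6 times as high on average. It took 0.403% and 0.454% of the piwi libraries and 0.0134% and 0.0114% of the white libraries. All other transposon families together stood at 22166 and 31692 in the piwi libraries and 3778 and 3830 in the white libraries, a 7.08-fold difference. Telomeric elements took a larger part of all transposon signal in the piwi libraries, 15.6% and 12.6%, against 3.39% and 2.80% in the white libraries, and they accounted for 15.4% of the difference in transposon signal between the group means. For each of these sums the exact two-sided permutation test of 2 libraries against 2 gave 1 in 3, the smallest p it can give.

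Within the telomeric signal the make-up differed between the groups. The signal is not corrected for element length, so a share is read between groups and not as a proportion of transcripts. HeT-A held 52.6% and 58.1% of it in the piwi libraries, against 68.5% and 72.1% in the white libraries. TAHRE held 32.4% and 27.4% in the piwi libraries, against 19.4% and 16.3% in the white libraries. TART-A held 7.87% and 6.35%, against 3.78% and 4.20%, and TART-B 5.69% and 6.38%, against 1.85% and 1.71%, in the piwi and white libraries. TART-C went the other way, with 1.40% and 1.82% in the piwi libraries and 6.52% and 5.75% in the white libraries, although its level was higher in the piwi libraries. The groups did not overlap for any of the 5 shares, and for each the exact two-sided permutation p was 1 in 3, the smallest possible, before and after adjustment over the 5.

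**Figure D2:**
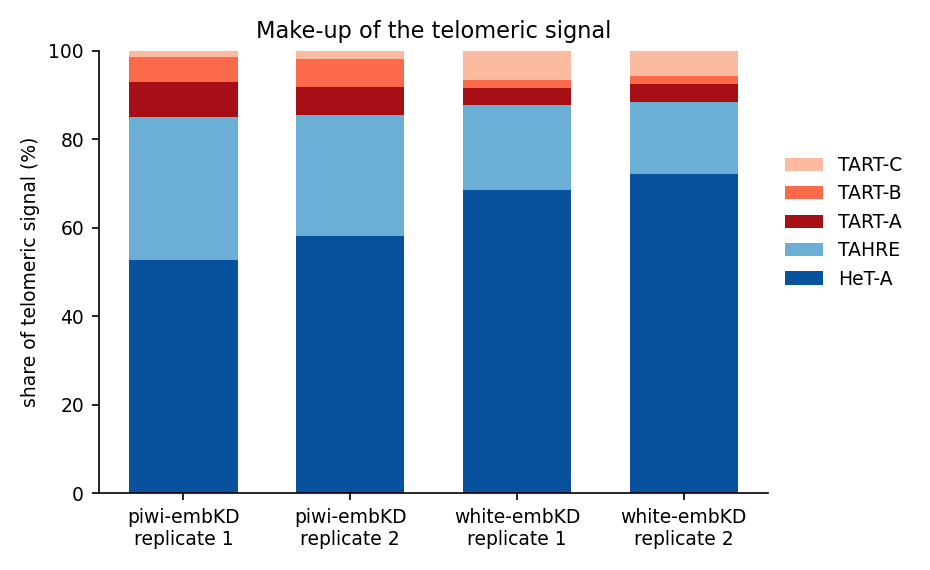
Share of the summed telomeric signal (%) held by each element, with 1 bar per library, the piwi-embKD libraries on the left and the white-embKD libraries on the right. HeT-A and TART-C hold smaller shares, and TAHRE, TART-A and TART-B larger ones, in the piwi libraries. Signal is not corrected for element length.

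The shift was widest among the TART subfamilies. TART-C held 9.39% and 12.5% of TART signal in the piwi libraries, against 53.7% and 49.3% in the white libraries. TART-B held 38.0% and 43.9% in the piwi libraries, against 15.2% and 14.7% in the white libraries, and the log2 ratio of TART-B to TART-C was 2.02 and 1.81 in the piwi libraries and −1.82 and −1.75 in the white libraries. The ratio of TART-A to TAHRE did not separate the groups, with log2 ratios of −2.04 and −2.11 in the piwi libraries and −2.36 and −1.95 in the white libraries. Of the 10 pairs of members this was the 1 pair whose groups overlapped, and no pair can reach an exact p under 1 in 3. The authors' model divides fragments that fit several rows, so the split among related elements is less certain than their sum. The summed TART signal, which does not depend on that split within TART, was 614 and 663 in the piwi libraries and 16.1 and 12.9 in the white libraries, a 44.1-fold difference.

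The piwi libraries were not alike in their other transposons. Transposon signal outside the members was 1.43 times as high in piwi-embKD replicate 2 as in replicate 1. Piwi RNA in replicate 2 was 0.510 times that of replicate 1, and a relation between the 2 measures was not tested. The members differed between these libraries in both directions. HeT-A was 1.23 times, TART-B 1.25 times and TART-C 1.44 times as high in replicate 2 as in replicate 1, and TART-A and TAHRE were 0.897 and 0.939 times as high. In the white libraries all 5 were lower in replicate 2, at 0.698 to 0.925 times replicate 1. Leaving out either piwi library gave log2 changes of 4.65 and 4.94 for HeT-A, and every member remained called without any single library.

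The telomeric elements were set beside their relatives, the other jockey-clade elements, which insert elsewhere in the genome. Of 21 such families measured 17 passed the filter. Limma called 5 higher and 0 lower (11 at an unadjusted p under 0.05). Among all transposon families tested 57% were called higher, and among all features 5.04%. An unadjusted p under 0.05 was reached by 79 of the 107 families. In 16 of the 17 both piwi libraries lay above both white libraries, which held for 90.7% of transposon families. All 17 changes were above 0, with a median log2 change of 0.66. The largest was that of Juan, at 58.4 and 78.7 in the piwi libraries and 20.3 and 18.5 in the white libraries (log2 change 1.75 ± 0.16 SE, limma adjusted p = 0.00280). G5 changed by 1.58 and jockey by 0.95. BS3 had a change of 1.10 (adjusted p = 0.112) and was not called, and at the low end jockey2 had 0.33 and G5A 0.29, neither called. All 17 thus lay below TART-C, the telomeric element with the smallest change. Summed, the jockey-clade families stood at 557 and 554 in the piwi libraries and 365 and 323 in the white libraries, a 1.61-fold difference, and their part of transposon signal was 2.12% and 1.53% in the piwi libraries, against 9.35% and 8.20% in the white libraries. The count of 5 was 9 without piwi-embKD replicate 2, 3 without white-embKD replicate 1 and 2 without white-embKD replicate 2, and it was 0 with no filter on low values.

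A further list of non-LTR elements, mostly of other clades, spanned log2 changes from 0.07 to 1.95. Of 11 tested, limma called 5 higher and 0 lower (7 at an unadjusted p under 0.05), with a median of 0.65. All 11 changes were above 0, and in 10 both piwi libraries lay above both white libraries, which held for 90.7% of transposon families. Of the 107 families tested 57% were called higher and 79 had an unadjusted p under 0.05, and of all features 5.04% were called higher. Ivk had the largest change, 1.95 ± 0.23 (SE; limma adjusted p = 0.00700), followed by Cr1a at 1.73 and baggins at 1.66. R1A1-element, which inserts into ribosomal DNA, had 1.11 and was not called (adjusted p = 0.119), and Rt1b and Rt1c had 0.14 and 0.07. The count of 5 fell without white-embKD replicate 2, as did the count over all features.

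**Figure D3:**
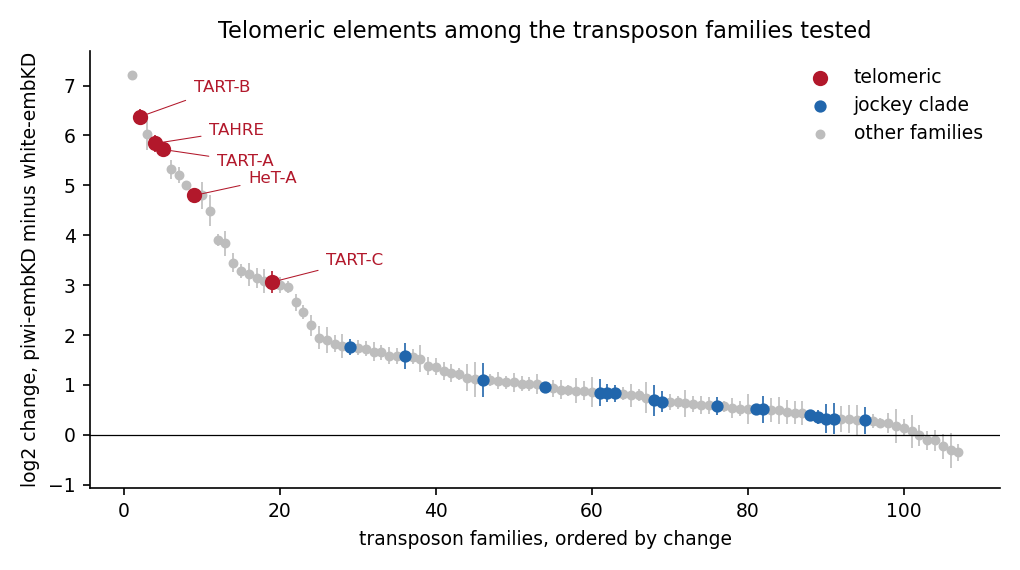
Log2 change (piwi-embKD minus white-embKD, y axis, with SE bars) of the 107 transposon families tested, ordered by change on the x axis. Telomeric elements are red, other jockey-clade elements blue and all other families grey. The 5 telomeric elements run from 3.06 to 6.37 and the 17 jockey-clade families from 0.29 to 1.75.

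The families whose pattern over the 4 libraries was nearest the members were LTR elements. Likeness was the Euclidean distance, over the 4 libraries, between a feature's log2 levels relative to the white mean and the median profile of the members. The members themselves lay between 0.12 (TART-A) and 3.79 (TART-C) from that profile. The nearest transposon families were blood (0.79), Burdock (0.86), 3S18 (0.98), Transpac (1.06) and GATE (1.45). Blood stood at 2314 and 3488 in the piwi libraries, against 71.4 and 69.0 in the white libraries, and Transpac at 1300.3 and 1404 against 40.1 and 42.5 in the piwi and white libraries. Among genes the nearest was hiw, which encodes the ubiquitin ligase Highwire (0.58, with 80.3 and 123 in the piwi libraries and 0.83 and 0.85 in the white libraries). Next came CG18302 (1.77), CG18858 (1.88), CG12971 (1.96) and CG32437 (1.99). CG18858 stood at 19.5 and 20.7 in the piwi libraries and was listed at 0 in both white libraries, so no fold is given for it. With 4 libraries in 2 groups, closeness mostly reflects a log2 change of similar size.

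No listed gene for capping, or for DNA repair and checkpoints, at the chromosome ends passed the test. Among all genes tested 4.35% were called higher and 1.59% lower, and 1887 of 7779 had an unadjusted p under 0.05. The capping list held 10 genes, for proteins that shield the chromosome end or, as with eff and Trf2, for other proteins linked to that. Limma called 0 of the 10 (3 at an unadjusted p under 0.05), with a median log2 change of −0.19. The smallest p-values were those of cav, which encodes the capping protein HOAP, at 52.8 and 48.3 in the piwi libraries and 64.8 and 65.3 in the white libraries (−0.36, adjusted p = 0.103), tea (−0.28) and ver, which encodes the capping protein Verrocchio (−0.73). Leaving out a piwi library raised the number of calls in this list and also over all features, as given below. Of 11 genes of DNA repair and checkpoints at the chromosome end, 0 were called (limma, 5 at an unadjusted p under 0.05), with a median of −0.22. Irbp and Ku80, the Ku subunits that bind DNA ends, had −0.35 and −0.31, and mus304, which encodes the partner of the checkpoint kinase ATR, had −0.36. For these 11 genes too, calls appeared only as calls rose over all features with a piwi library left out.

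Genes for chromatin proteins that are known at, or proposed for, telomeric element arrays and for the CCR4-NOT deadenylase, which shortens poly(A) tails and is known to limit telomeric element RNA in ovaries, gave no calls. Of 5 chromatin genes limma called 0 (1 at an unadjusted p under 0.05), and the changes of Chro, prod and JIL-1 were −0.30, −0.23 and −0.12. With a piwi library left out, calls appeared in this list while they also rose over all features. Of 9 genes listed for CCR4-NOT, including smg, which is not for a subunit, 0 were called (limma, 1 at an unadjusted p under 0.05). Not1, the scaffold subunit, stood at 608 and 461 in the piwi libraries and at 399 and 373 in the white libraries (0.46 ± 0.15 SE, limma adjusted p = 0.125). Its change was 0.26 without piwi-embKD replicate 1 and 0.66 without replicate 2, and calls appeared in this list as well. Not11 and Rcd-1 had 0.24 and −0.18.

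In the piRNA pathway 3 genes were called, all lower, beside 1.59% called lower over all genes tested. Nxf3, which encodes the export factor for transcripts of piRNA clusters, stood at 115 and 132 in the piwi libraries, against 183 and 185 in the white libraries (log2 change −0.58 ± 0.10 SE, limma adjusted p = 0.0274). The cluster chromatin gene rhi had −0.48 (adjusted p = 0.0475), and these were the 2 called of 6 cluster transcription genes. Of 20 genes of piRNA biogenesis and ping-pong amplification limma called 1 (5 at an unadjusted p under 0.05), the RNA helicase gene armi at −0.57 (adjusted p = 0.0184). Of 11 genes of nuclear silencing, piwi among them, limma called 0 (3 at an unadjusted p under 0.05), with Panx, which links Piwi to chromatin silencing, at −0.33 and the histone demethylase gene Su(var)3-3 at −0.27. None of the 3 was called when white-embKD replicate 1 (limma adjusted p from 0.218 to 0.399) or replicate 2 (0.270 to 0.453) was left out. With either piwi library left out, more genes of biogenesis and of nuclear silencing were called lower, as were more of all features. For cluster transcription this held only with replicate 1 left out.

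**Figure D4:**
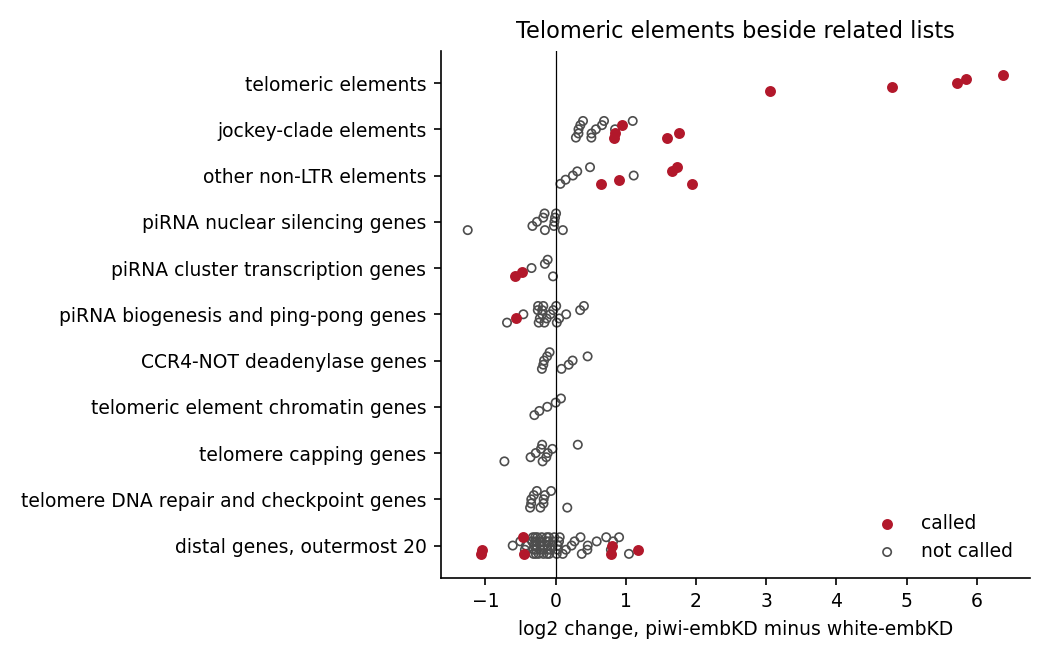
Log2 change (piwi-embKD minus white-embKD, x axis) of each tested member of the lists named on the y axis, with 1 point per feature, filled red where limma called it and open where it did not. The telomeric elements lie to the right of every other point. The genes of the piRNA pathway, deadenylase, chromatin, capping and repair lists lie between −1.25 (piwi) and 0.46 (Not1). The outermost 20 genes per arm lie between −1.06 and 1.18.

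Markers of other cell types also differed between the groups, beside 4.35% called higher and 1.59% called lower over all genes tested. Of 14 follicle cell markers tested 12 were called higher, and their summed level over 15 genes was 7751 and 8330 in the piwi libraries, against 3279 and 3313 in the white libraries. Of 9 muscle markers 4 were called higher, with sums of 324 and 256 in the piwi libraries, against 184 and 176 in the white libraries. Of 13 gut markers 3 were called lower, and the sum over 15 genes was 161 and 0.707 in piwi-embKD replicates 1 and 2, against 232 and 208 in the white libraries. Of 13 testis markers 9 were at 0 in all libraries. In whole ovaries, fewer cells of a type and less RNA per cell cannot be told apart, and the part of cell composition in the telomeric values was not tested. Over the single follicle cell markers the ratio of means ran from 1.15 for fs(1)N to 5.94 for Vm32E.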

How the data were processed

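Per the labels' protocols, total RNA from ovaries was depleted of ribosomal RNA and sequenced as paired reads. The authors deposited, per the file headers, a signal per target that is a normalized eXpress effective count. Its normalization factor, annotation and strand setting are not given in these sources. The submitters' processing notes name Bowtie2, STAR, Cufflinks and dm3, without role or version. Transcripts were named with an NCBI RefSeq table of the Release 6 assembly, which matched 28233 of 29511 (95.7%), and summed per gene. No coordinate is given, because that assembly is not the authors' build. Element lengths are not in the sources used here. Shares and ratios between elements are therefore of signal not corrected for length, and do not give proportions of transcripts.

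Groups came from the sample titles, and the labels call the pairs biological replicates. Values were transformed to log2(value + 0.995) and fitted in limma (version 3.58.1, R 4.3.3) with a trend on intensity; 0.995 is 1e-06 of the mean column total and also the lowest mean that was tested. All p-values are two-sided with Benjamini-Hochberg adjustment over all 8172 features, and a call needs an adjusted p under 0.05. Only 1.95% to 2.22% of low values were whole effective counts within 0.01, so no count test was run. Depth assumes that the smallest value above 0 in a library is 1e-06 of a count. The fit was run on simulated data with a common spread for all features and both groups. The piwi pair was less alike than the white pair (log2 correlation 0.9765 and 0.9946), so that run does not test unequal spread. Alternatives were other pseudocounts, filters and scalings, no trend, unsummed transcripts, a replicate block and each library left out, where the lone library of a group is assumed to vary like the other group. Shares used exact permutation tests over libraries (SciPy 1.17.1).

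The members and all lists were chosen with earlier results of these data known. Named features are the members, the hairpin targets, the 5 families and 5 genes nearest in pattern, the called or lowest-p members of each pathway list, the 4 largest and 2 smallest changes among non-LTR lists, and every called distal gene. Tc1-2, a DNA transposon, was dropped from the non-LTR list.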

Additional observations from a re-analysis of the deposited data

How the results depend on the processing

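HeT-A, TAHRE, TART-A and TART-B were called under 13 of 13 alternatives and TART-C under 12 of 13. Their log2 changes ran from 4.65 to 4.94 for HeT-A, 5.59 to 6.09 for TAHRE, 5.14 to 5.91 for TART-A, 5.43 to 6.76 for TART-B and 2.68 to 3.32 for TART-C, with the extremes of TART-A and TART-B set by the larger and the smaller pseudocount. With no filter on low values TART-C had a limma adjusted p of 0.127. Leaving out each library in turn, the group difference in percentage points ran from 0.391 to 0.441 for the telomeric share of the library, 9.47 to 12.5 for its share of transposon signal, −17.6 to −12.2 for the HeT-A share, 9.56 to 14.6 for TAHRE, 2.36 to 3.88 for TART-A, 3.91 to 4.60 for TART-B and −4.91 to −4.14 for TART-C. The share of transposon signal differed by 14.2 points without copia and mdg3, against 11.0 with them.

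Counts of calls depended more on the settings, and the cause was not tested. Over all features 412 were higher and 135 lower. These were 114 and 48 with no filter, 81 and 10 with transcripts unsummed, and, leaving out single libraries, 189 to 1308 and 24 to 1485. With no filter the calls were 0 for jockey-clade, 0 for other non-LTR, 0 for cluster transcription, 0 for biogenesis and, for the outermost 20 genes per arm, 0 higher and 1 lower, with 0 and 0 for the outermost 5. With transcripts unsummed they were 1, 1, 0, 0, 0 and 0, and 0 and 0. With the stricter filter, nuclear silencing had 1 lower, biogenesis 2 lower and the outermost 5 genes 0 lower. With no trend, cluster transcription had 0 lower, the outermost 20 genes 5 higher and the outermost 5 genes 2 higher. With median-of-ratios scaling, cluster transcription had 1 lower. Leaving out each library gave 2 to 9 higher for jockey-clade, 3 to 6 for other non-LTR, 0 to 1 higher and 0 to 5 lower for capping, 0 to 5 lower for repair, 0 to 1 lower for chromatin, 0 to 2 higher for CCR4-NOT, 0 to 1 higher and 0 to 3 lower for nuclear silencing, 0 to 3 lower for cluster transcription, 0 to 1 higher and 0 to 10 lower for biogenesis, 0 to 12 higher and 0 to 18 lower for the outermost 20 genes, and 0 to 3 higher and 0 to 4 lower for the outermost 5.

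Replicate numbers gave a weak correlation of deviations (0.06 over 8172 features), and the labels name nothing that a number shares, so they were not taken as pairs. The fit with the replicate block called 594 higher and 233 lower, with all 5 telomeric elements higher, 1 CCR4-NOT gene higher, 1 nuclear silencing gene and 2 biogenesis genes lower, 6 of the outermost 20 genes higher and 3 of the outermost 5. With 2 libraries per group, a change has to exceed a spread estimated largely across features.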

Other observations

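Genes next to the chromosome ends were listed by their order on each arm in the RefSeq table, as the outermost 20 genes at the distal end of X, 2L, 2R, 3L, 3R and 4. Of 120 such genes 100 had a row and 62 passed the filter. Of these limma called 3 higher and 4 lower, beside 4.35% higher and 1.59% lower among all genes tested. The median log2 change was −0.12, against −0.04 over all features. CG30428, next to the outermost gene of 2R, stood at 13.8 and 14.8 in the piwi libraries and 5.48 and 6.02 in the white libraries (1.18 ± 0.16 SE, limma adjusted p = 0.0108). p130CAS on 3L and CG2003 on 3R rose by 0.80 and 0.78. Cadps, the outermost gene of chromosome 4 and known for its part in vesicle release, stood at 2.98 and 2.24 in the piwi libraries and 6.14 and 6.87 in the white libraries (−1.06, adjusted p = 0.0420). CG11155, also on chromosome 4, had −1.04, and dbr and Zir on 2L had −0.47 and −0.45. The outermost 5 genes per arm gave 1 higher and 1 lower of 14 tested. The 3 genes called higher and the 4 called lower among the outermost 20 lost their calls without white-embKD replicate 1 or without white-embKD replicate 2. Without white-embKD replicate 1 the outermost 20 gave 1 higher and 0 lower, the 1 being another gene, lncRNA:CR40469, named here after its values were seen. With either piwi library left out, calls among the outermost 20 rose in both directions, as they did over all features.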
